A study of Mus musculus with 30 samples.

Results

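The genes described here are 7 mouse protease inhibitor genes of the serpin superfamily, Serpina3f, Serpina3g, Serpina3h, Serpina3i, Serpina3n, Serpinb9 and Serpinb9b, out of 49315 genes in the count table. They were chosen by gene name, and Serpina3g was chosen because its level fell steeply from early to late lung cells in these data. Of the 7, 6 passed the filter on low counts among 17774 genes tested, and Serpinb9b did not. RNA was sequenced from 30 libraries of 4T1-tdTomato cells, a mammary tumour line derived from the BALB/c strain and marked with a red fluorescent protein, grown in female mice of the BALB/c strain, which is immunocompetent, or of the NSG strain, which lacks T, B and NK cells. The cells were gated as live tdTomato-positive singlets without the leukocyte marker CD45. The groups, of 5 libraries each, were BALB/c tumour (mammary fat pad, 200000 cells implanted, days 21 and 22), NSG tumour (the same site and cell number, day 10), the DTC groups of both strains (lung, 500000 cells by tail vein, day 7, with DTC not expanded in the labels), BALB/c macro-met (lung, 500000 cells by tail vein, days 21 and 23) and NSG macro-met (the same, days 19 and 20). Every group carried the same cell line and reporter, and no drug or gene change was labelled. Lung cells entered by the vein and not from a primary tumour, so organ, route and cell number cannot be told apart from stage, and the day of tumours and macro-mets differed between the strains. Nothing in the labels ties each library to an animal of its own, so p-values measure the spread between these libraries, which may be technical. The comparisons reuse the same groups and are not independent of one another.

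Serpins inhibit proteases by presenting a loop that the protease cuts, after which the inhibitor traps the enzyme in an inactive complex. The Serpina3 genes of the mouse are a tandem family on chromosome 12 that matches a single human gene, the one for alpha-1-antichymotrypsin. Serpina3n encodes a secreted inhibitor induced in acute phase and inflammatory responses, whereas Serpina3g (also named Spi2A) encodes an inhibitor that acts inside cells on lysosomal cathepsins and is induced by interferon and NF-kB signalling. Serpinb9 encodes an intracellular inhibitor of granzyme B, the protease that cytotoxic T and NK cells deliver to their targets, and it can be carried by tumour cells as well as by the killer cells.

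On GRCm38 with GENCODE M21, the 5 Serpina3 genes lie on the plus strand of chromosome 12 in the order Serpina3f (ENSMUSG00000066363, chr12:104214544-104221129), Serpina3g (ENSMUSG00000041481, chr12:104236245-104241939), Serpina3h (ENSMUSG00000041449, chr12:104247905-104253669), Serpina3i (ENSMUSG00000079014, chr12:104263122-104269372) and Serpina3n (ENSMUSG00000021091, chr12:104406729-104414329). Serpinb9 (ENSMUSG00000045827, chr13:33003250-33017957) and Serpinb9b (ENSMUSG00000021403, chr13:33027416-33041884) neighbour each other on the plus strand of chromosome 13. Serpina3h is annotated as a transcribed unprocessed pseudogene and the other 6 as protein-coding genes. The transcripts of the cluster share stretches of sequence: of all 50-base windows of the annotated transcripts, 21.9% of those of Serpina3h, 15.9% of Serpina3i, 15.5% of Serpina3g, 10.6% of Serpina3f and 6.9% of Serpina3n also occurred in a transcript of another gene, against 0.378% for Serpinb9. With windows of 100 bases these shares were 3.6% or less in all 7 genes. Reads of Serpina3f, Serpina3g, Serpina3h and Serpina3i could therefore be assigned to one another in part, and their separate values are less certain than those of Serpina3n or Serpinb9.

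Promoter sequences are shown because the members of the Serpina3 cluster differed in level from group to group. The 250 bases before the RefSeq start site (GRCm38.p6, plus strand, 5′ to 3′) are shown for the 4 coding Serpina3 genes and Serpinb9, with motif matches in capitals.
Serpina3f chr12:104214294-104214543: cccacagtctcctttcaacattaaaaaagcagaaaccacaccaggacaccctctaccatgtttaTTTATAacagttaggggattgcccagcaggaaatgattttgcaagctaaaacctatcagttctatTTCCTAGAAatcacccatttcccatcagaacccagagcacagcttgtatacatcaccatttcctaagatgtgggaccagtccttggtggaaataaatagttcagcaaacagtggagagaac
Serpina3g chr12:104235897-104236146: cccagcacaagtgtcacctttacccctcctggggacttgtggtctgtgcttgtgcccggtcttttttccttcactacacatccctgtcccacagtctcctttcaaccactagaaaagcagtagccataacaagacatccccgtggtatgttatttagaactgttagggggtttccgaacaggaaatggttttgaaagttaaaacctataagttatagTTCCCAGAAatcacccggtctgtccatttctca
Serpina3i chr12:104262872-104263121: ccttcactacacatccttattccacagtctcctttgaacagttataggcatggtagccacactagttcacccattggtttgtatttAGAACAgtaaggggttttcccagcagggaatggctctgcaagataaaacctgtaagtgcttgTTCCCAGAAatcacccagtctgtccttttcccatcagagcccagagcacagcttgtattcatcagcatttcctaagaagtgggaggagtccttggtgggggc
Serpina3n chr12:104406458-104406707: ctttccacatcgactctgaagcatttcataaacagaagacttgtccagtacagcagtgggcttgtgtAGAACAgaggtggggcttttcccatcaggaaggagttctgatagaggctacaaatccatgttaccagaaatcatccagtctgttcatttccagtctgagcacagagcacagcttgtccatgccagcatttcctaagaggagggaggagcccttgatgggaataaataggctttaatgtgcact
Serpinb9 chr13:33004291-33004540: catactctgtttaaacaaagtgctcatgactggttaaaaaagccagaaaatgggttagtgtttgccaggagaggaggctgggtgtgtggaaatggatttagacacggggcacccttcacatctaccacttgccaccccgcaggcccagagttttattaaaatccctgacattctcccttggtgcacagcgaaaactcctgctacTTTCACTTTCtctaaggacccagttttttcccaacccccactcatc
The letters searched on both strands were TTCNNNGAA (the GAS element bound by STAT factors), GAAANNGAAA (the interferon-stimulated response element, ISRE), GGGANTTTCC (a kappaB site), TGANTCA (AP-1), TGTTCT (the half-site of the glucocorticoid receptor) and TATAAA. RefSeq promoters were matched for 6 of the 7 members, all but Serpina3h.

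TTCNNNGAA occurred in Serpina3g as TTCCCAGAA, 33 bases before the start site, in Serpina3i as TTCCCAGAA, 102 bases before it, and in Serpina3f as TTCCTAGAA, 121 bases before it. The Serpina3n window held none. Of 32851 RefSeq promoter windows of the same length, 7.02% held this motif. GAAANNGAAA was found in Serpinb9, on the minus strand 46 bases before the start site (TTTCACTTTC on the plus strand), and in 2.98% of all windows. TGTTCT occurred on the minus strand (AGAACA) 164 bases before the start of Serpina3i, 183 bases before that of Serpina3n and 185 bases before that of Serpinb9b, with 16.1% of all windows holding it. A second RefSeq start of Serpina3f, whose window begins at base 104214383 of chromosome 12, had the same GAS letters 210 bases before it and TGTTCT 94 bases before it. TATAAA was found on the minus strand of Serpina3f (TTTATA), as in 12.4% of all windows. None of the 6 windows held the kappaB letters GGGANTTTCC (0.356% of all windows) or the AP-1 letters (6.75%). Looser forms of these motifs were not searched over all windows. With another base in place of the A of GGGANTTTCC, the Serpina3g window reads GGGGGTTTCC, that of Serpina3i GGGGTTTTCC and that of Serpina3n GGGCTTTTCC. How many of all windows hold such letters was not counted. A match is a description of the letters and not of binding. The map of motif positions shows that the 3 genes with a GAS match carry it at 3 different distances from the start.

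**Figure D1:**
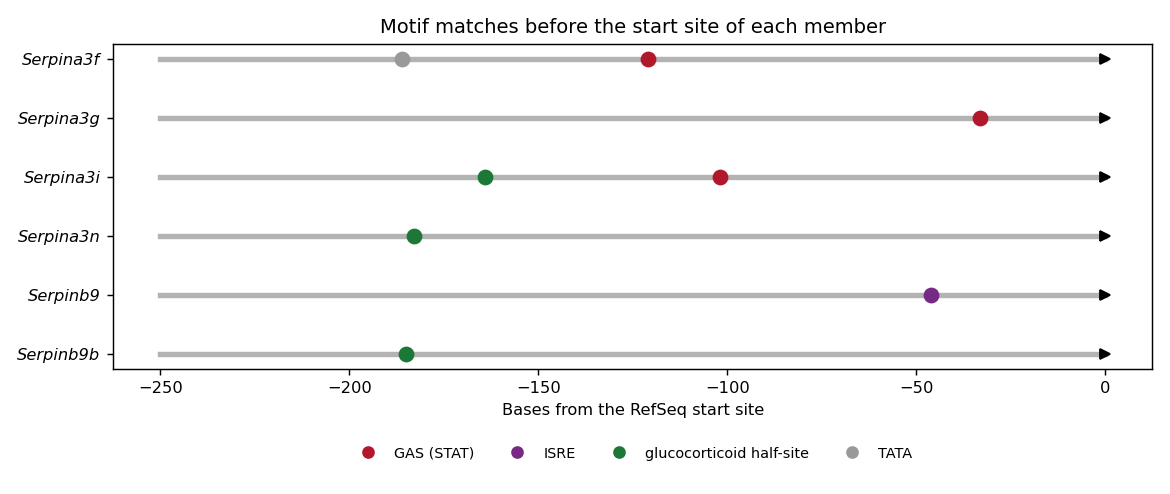
Motif matches in the 250 bases before the RefSeq start site of 6 members; the x axis gives the distance from the start in bases, grey bars are the windows and coloured points are matches on either strand. GAS letters are seen in Serpina3f (121 bases before the start), Serpina3g (33) and Serpina3i (102) but not in Serpina3n.

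Total counts per library ran from 29832098 to 65621525. Levels are given as CPM, counts scaled by library size and the TMM factors of edgeR, and levels of different genes are set beside each other only as the authors' TPM, which also divide by transcript length. Genes with a count numbered 19563 to 22187 in 26 libraries and were fewer in 4, at 17517 in BALB/c tumour replicate 4, 18593 and 19049 in NSG tumour replicates 2 and 3, and 18297 in NSG macro-met replicate 3. Tumour-cell markers (7 epithelial genes) all had counts in every group, with summed CPM of 4299 to 9342. The 10 lung epithelium markers, which the tdTomato gate should remove, summed to 3381, 1445, 93.7, 194 and 69.0 CPM in the 5 BALB/c DTC libraries and to no more than 67.8 CPM in any library of the other groups, where all 10 had counts in lung groups and 7 in tumours (Scgb3a2 at 0 in both tumour groups). BALB/c DTC replicates 1 and 2 therefore stood apart, and the changes of members and the list counts that rest on BALB/c DTC are given with and without them, unless stated otherwise. Macrophage markers summed to 94.4 to 712 CPM in BALB/c DTC and 38.3 to 173 CPM elsewhere. The 15 T and NK cell markers summed to 0.867 to 9.09 CPM over all libraries. In bulk RNA, fewer cells of a type and less RNA per cell cannot be told apart.

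Serpina3g, the intracellular cathepsin inhibitor, ran from 0.182 to 70.0 CPM in its group means. In BALB/c tumours its level in replicates 1 to 5 was 9.83, 9.10, 7.40, 7.91 and 12.0 CPM. In BALB/c DTC it was 65.6, 41.1, 10.7, 149 and 83.1 CPM, and in BALB/c macro-mets 1.22, 3.82, 5.96, 4.44 and 4.26 CPM. Every BALB/c DTC library lay above every BALB/c macro-met library, and replicate 3 of DTC, the lowest, lay within the range of the tumours. In NSG mice the levels were 0.0787, 0.166, 0.369, 0.112 and 0.183 CPM in tumours, 0.642, 0.924, 0.570, 0.667 and 1.48 CPM in DTC and 0.129, 0.558, 0, 0.408 and 0.076 CPM in macro-mets. The highest NSG library, DTC replicate 5, lay above the lowest BALB/c library, macro-met replicate 1, and every other BALB/c library lay above every NSG library. By mean level the order was BALB/c DTC (70.0 ± 52.0 CPM, SD, n = 5), BALB/c tumour (9.24 ± 1.79), BALB/c macro-met (3.94 ± 1.72), NSG DTC (0.856 ± 0.372), NSG macro-met (0.234 ± 0.238) and NSG tumour (0.182 ± 0.113). Neighbours in this order overlapped in 3 of 5 cases: both ends of the order and BALB/c macro-met with NSG DTC.

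**Figure D2:**
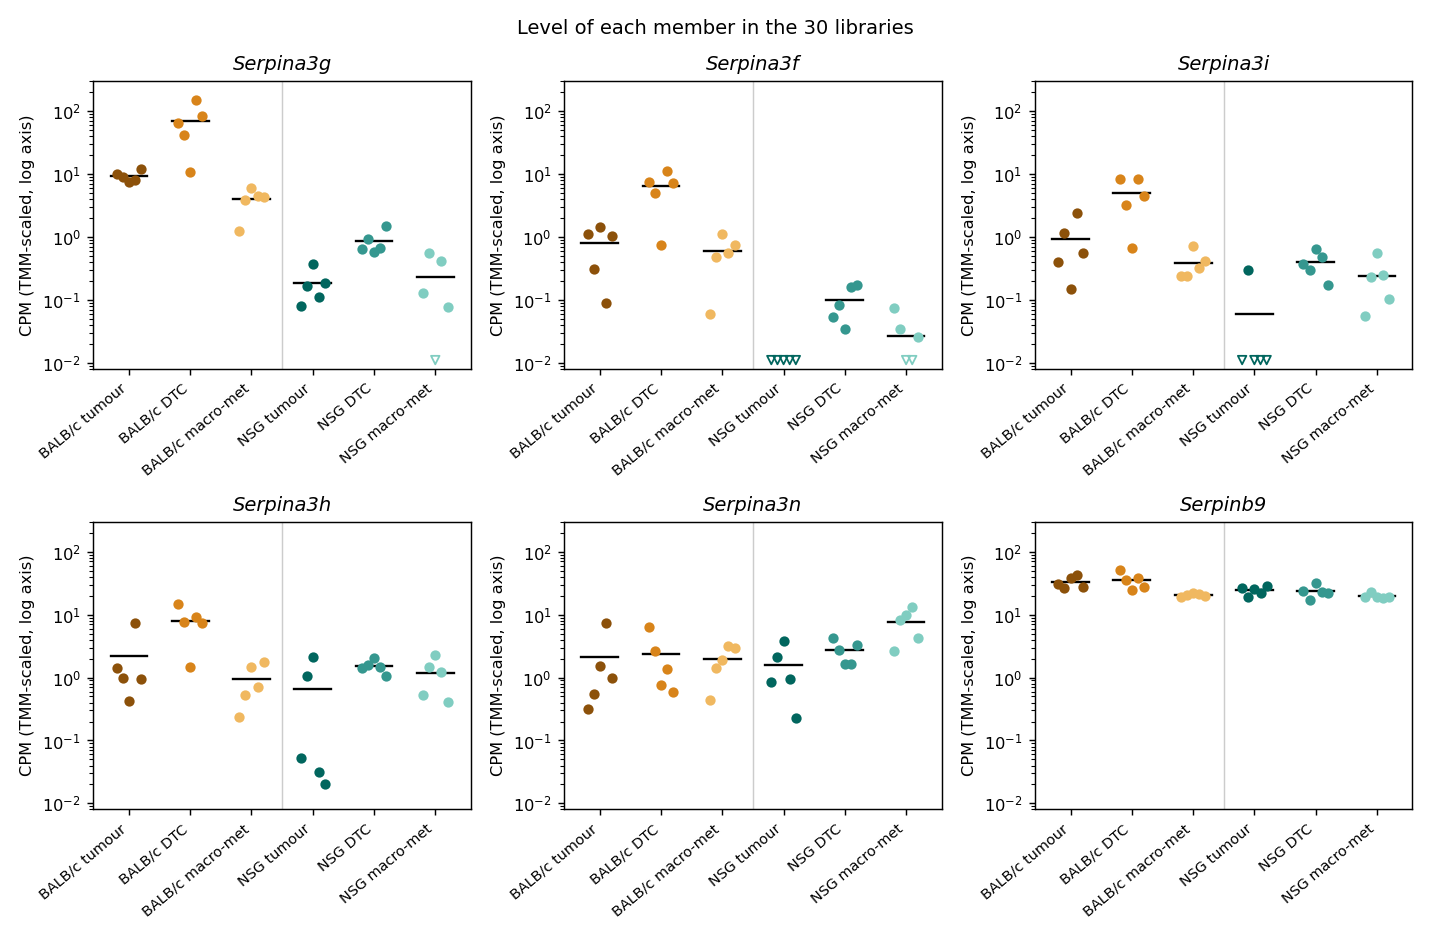
CPM (TMM-scaled, log axis) of 6 members in each of the 30 libraries, with 5 points per group, a black line at the group mean and open triangles for libraries at 0. Serpina3g lies higher in BALB/c than in NSG groups of the same stage, while Serpinb9 lies between 17.3 and 51.4 CPM in every library.

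Serpina3f, a coding neighbour of Serpina3g, followed a similar order at lower counts. BALB/c tumours held 1.11, 0.307, 1.43, 0.0874 and 1.03 CPM, BALB/c DTC held 7.55, 5.07, 0.744, 11.0 and 7.27 CPM and BALB/c macro-mets 0.0591, 0.480, 1.12, 0.547 and 0.729 CPM. It had no count in any of the 5 NSG tumour libraries, 2 to 9 counts per library in NSG DTC and 0 to 4 counts in NSG macro-mets. Only BALB/c libraries exceeded the 0.189 CPM of the low-count filter, 13 of them, so Serpina3f entered the test through the BALB/c groups. BALB/c DTC replicates 1, 2, 4 and 5 stood above all other libraries, and replicate 3 lay within the range of the BALB/c tumours and macro-mets.

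Serpina3i is the next coding gene of the cluster. BALB/c tumours held 0.404, 1.16, 0.149, 2.36 and 0.549 CPM, BALB/c DTC held 8.34, 3.17, 0.658, 8.27 and 4.47 CPM and BALB/c macro-mets 0.236, 0.240, 0.726, 0.325 and 0.407 CPM. In NSG tumours replicate 2 held 9 counts (0.299 CPM) and the other 4 libraries held none. NSG DTC stood at 0.375, 0.297, 0.639, 0.486 and 0.170 CPM and NSG macro-mets at 0.0553, 0.227, 0.554, 0.251 and 0.101 CPM. As for Serpina3f, 4 of the 5 BALB/c DTC libraries lay above all others, and replicate 3 did not.

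Serpina3h is the pseudogene between Serpina3g and Serpina3i. BALB/c tumours held 1.42, 0.977, 0.418, 7.32 and 0.964 CPM, BALB/c DTC held 14.7, 7.54, 1.46, 9.13 and 7.36 CPM and BALB/c macro-mets 0.236, 0.532, 1.45, 0.718 and 1.80 CPM. In NSG mice it stood at 0.0525, 1.06, 2.09, 0.032 and 0.0203 CPM in tumours, 1.44, 1.60, 2.07, 1.50 and 1.05 CPM in DTC and 0.535, 1.48, 2.27, 1.22 and 0.405 CPM in macro-mets. The NSG tumours split, with replicates 2 and 3, which also had fewer genes detected, at 1.06 and 2.09 CPM and the other 3 at 0.0525 CPM or less. BALB/c tumour replicate 4 (7.32 CPM) likewise stood above the other BALB/c tumours. The part of low gene detection in these values was not tested.

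Serpina3n, the secreted acute phase member, had another order. BALB/c tumours held 0.314, 0.543, 1.52, 7.41 and 0.997 CPM, BALB/c DTC held 6.40, 2.62, 0.773, 1.36 and 0.584 CPM and BALB/c macro-mets 0.433, 1.44, 1.90, 3.16 and 2.95 CPM. In NSG mice it was 0.840, 2.09, 3.87, 0.960 and 0.224 CPM in tumours, 4.25, 2.76, 1.66, 1.62 and 3.32 CPM in DTC and 2.69, 8.16, 9.91, 13.2 and 4.33 CPM in macro-mets. NSG macro-mets had the highest mean (7.66 ± 4.24 CPM, SD, n = 5), ahead of NSG DTC (2.72 ± 1.12), BALB/c DTC (2.35 ± 2.40), BALB/c tumours (2.16 ± 2.97), BALB/c macro-mets (1.98 ± 1.12) and NSG tumours (1.60 ± 1.44). All neighbours in this order overlapped. The 10 fibroblast markers had counts in every group and summed to 557, 550, 642, 521 and 578 CPM in the NSG macro-mets, to 216, 224, 200, 179 and 174 CPM in NSG DTC and to 280, 296, 400, 884 and 467 CPM in BALB/c tumours, where replicate 4 was highest for these markers as it was for Serpina3n. In BALB/c macro-mets they summed to 397, 464, 548, 639 and 609 CPM, near the NSG macro-mets, while the mean of Serpina3n was 1.98 CPM there. The part of fibroblast RNA in the Serpina3n level was not tested.

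Serpinb9, the granzyme B inhibitor, had group means between 19.7 and 35.5 CPM. BALB/c tumours held 31.1, 26.2, 38.4, 42.3 and 28.0 CPM, BALB/c DTC held 51.4, 35.3, 24.3, 38.8 and 27.9 CPM and BALB/c macro-mets 19.3, 20.2, 21.8, 21.5 and 19.6 CPM. In NSG mice it stood at 26.8, 19.3, 25.7, 22.0 and 29.0 CPM in tumours, 23.9, 17.3, 32.4, 23.0 and 21.9 CPM in DTC and 18.8, 22.9, 19.3, 18.4 and 18.8 CPM in macro-mets. The order of means was BALB/c DTC (35.5 ± 10.6 CPM, SD, n = 5), BALB/c tumour (33.2 ± 6.89), NSG tumour (24.6 ± 3.89), NSG DTC (23.7 ± 5.49), BALB/c macro-met (20.5 ± 1.12) and NSG macro-met (19.7 ± 1.85), and all neighbours overlapped. Serpinb9b, its neighbour on chromosome 13, had 0 to 13 counts per library, and 14 of 30 libraries had none.

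The makeup of the Serpina3 signal is described by strain. On the TPM scale, which allows levels of different genes to be set side by side, the 5 Serpina3 genes summed to 20.1 ± 7.58 TPM (SD, n = 5) at the primary site of BALB/c mice, 115 ± 71.8 in their DTC and 11.0 ± 5.33 in their macro-mets. In NSG tumours, DTC and macro-mets the sums were 3.50 ± 3.58, 9.19 ± 1.31 and 13.0 ± 6.59 TPM. Serpina3g made up 63.1 ± 20.0%, 71.7 ± 8.93% and 49.3 ± 6.90% of the sum in the BALB/c groups, in the order tumour, DTC and macro-met, against 13.6 ± 15.8%, 13.5 ± 5.29% and 2.47 ± 1.88% in the matching NSG groups. Serpina3n made up 10.8 ± 9.85%, 3.38 ± 2.55% and 23.8 ± 6.91% in BALB/c groups and 65.5 ± 18.2%, 42.5 ± 12.2% and 77.6 ± 6.51% in NSG groups. The NSG tumour share of Serpina3g rested on replicate 5, and the mean without that library was 6.66 ± 2.66% (SD, n = 4). In BALB/c DTC without the lung-rich replicates 1 and 2 the sum was 120 ± 97.2 TPM, with shares of 77.5 ± 5.32% for Serpina3g and 2.20 ± 2.66% for Serpina3n (SD, n = 3). In every BALB/c library Serpina3g or Serpina3h held the largest share, and in NSG macro-mets Serpina3n held over 72% in each library. Serpinb9 alone stood at 24.7 ± 3.41 TPM in BALB/c tumours and 15.5 ± 1.89 TPM in NSG macro-mets, and its group mean exceeded the sum of the 5 Serpina3 genes in every group except BALB/c DTC. The shares are descriptions and carry no test.

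**Figure D3:**
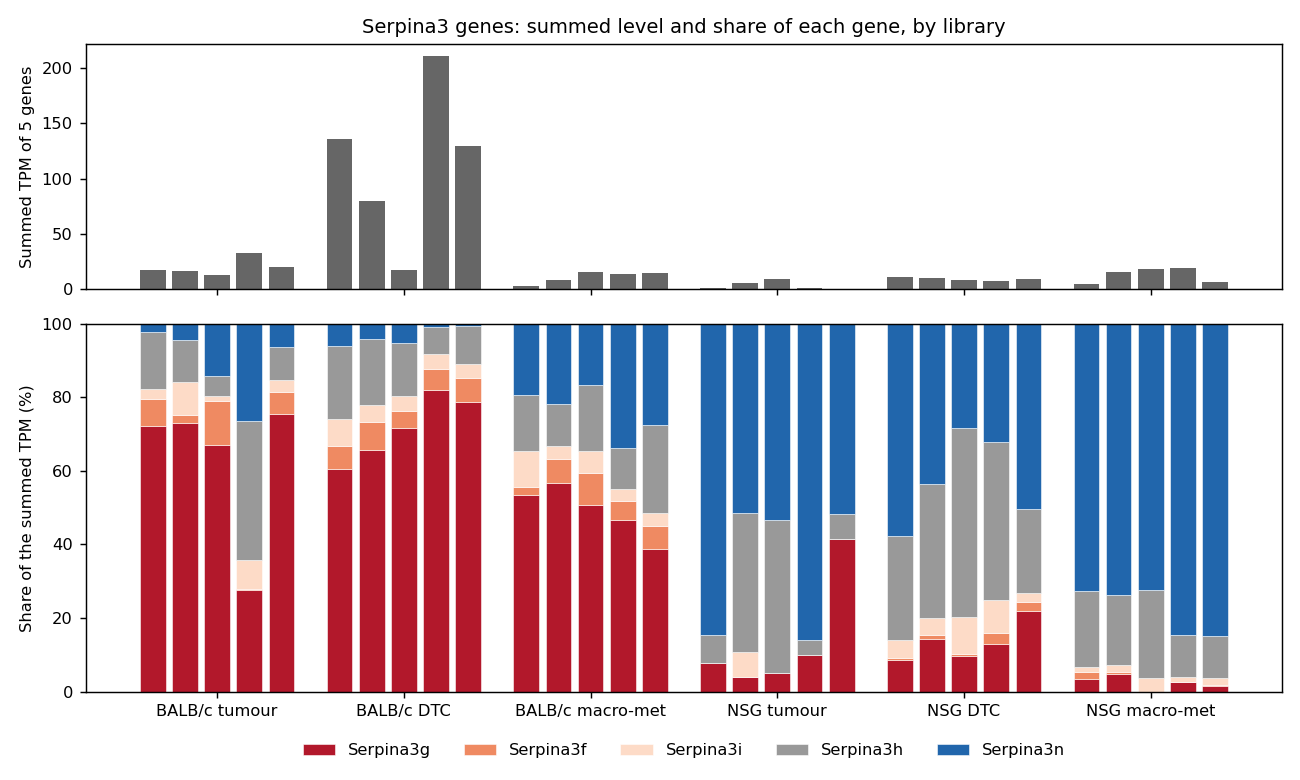
Upper panel, summed TPM of the 5 Serpina3 genes in each of the 30 libraries; lower panel, the share of each gene in that sum (%), libraries in order of replicate within group. Serpina3g (red) fills 60.4% to 82.0% of the sum in BALB/c DTC, and Serpina3n (blue) 72.4% to 84.8% in NSG macro-mets.

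BALB/c macro-mets were set against BALB/c DTC to see how the members differ between early and late lung cells. Serpina3g was chosen on this difference, and it is given for all members as a description with no test. The log2 fold change of Serpina3g was -4.15 ± 0.55 (SE), a level 17.8-fold lower in macro-mets. Values for its neighbours were -3.70 ± 0.86 for Serpina3i, -3.44 ± 0.74 for Serpina3f and -3.09 ± 0.90 for Serpina3h. Serpina3n stood at -0.24 ± 0.75 and Serpinb9 at -0.79 ± 0.17. The libraries of both groups did not overlap for 2 members, Serpina3g and Serpinb9, beside 22.7% of all genes tested. Without the lung-rich BALB/c DTC replicates 1 and 2 the values were -4.36 for Serpina3g, -3.53 for Serpina3i, -3.44 for Serpina3f, -2.66 for Serpina3h, -0.57 for Serpinb9 and 1.14 for Serpina3n. Leaving out replicate 1 alone also turned the direction of Serpina3n, to 0.59, as did leaving out BALB/c macro-met replicate 1 (0.06).

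**Figure D4:**
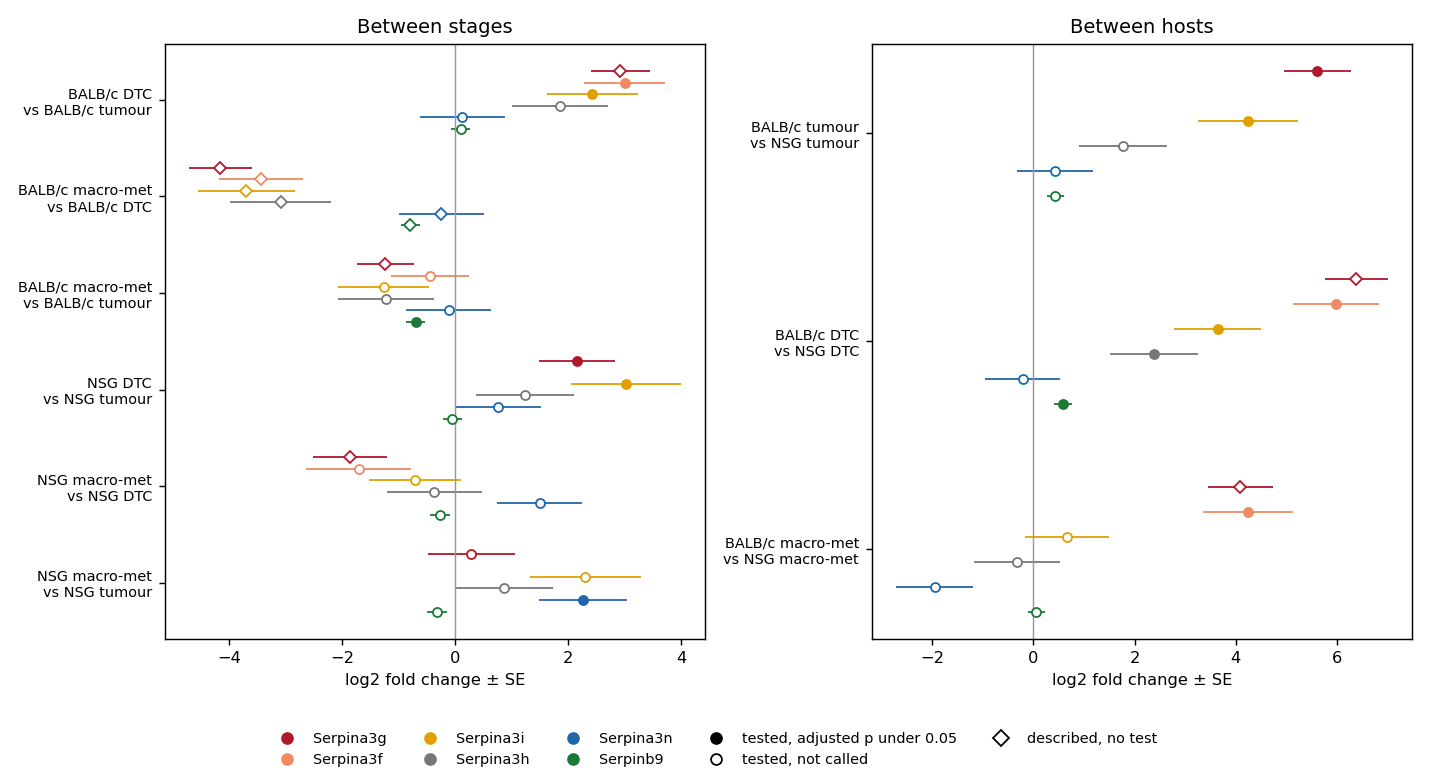
log2 fold change with its SE for each member in 6 comparisons between stages (left) and 3 between strains of the host (right); circles were tested (filled where the adjusted p was under 0.05) and diamonds are descriptions with no test. Serpina3f against NSG tumours is left out because those libraries were all at 0. Serpina3g, Serpina3f and Serpina3i lie to the right in BALB/c DTC against BALB/c tumours and in BALB/c against NSG DTC, and Serpinb9 lies within 1 of 0 throughout.

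Early lung cells were set against the primary site within BALB/c mice, as DTC against tumours. Of the 5 members tested, 2 rose, Serpina3f (3.00 ± 0.72, adjusted p = 0.00161) and Serpina3i (2.43 ± 0.81, adjusted p = 0.017), beside 41.4% of all genes called in this comparison by the quasi-likelihood test of edgeR with Benjamini-Hochberg adjustment. Serpina3g, given without a test, stood at 2.92 ± 0.52, a 7.56-fold higher level. Serpina3h (1.85 ± 0.85, adjusted p = 0.081), Serpina3n (0.13 ± 0.75, adjusted p = 0.908) and Serpinb9 (0.10 ± 0.17, adjusted p = 0.667) were not called. With BALB/c tumour replicate 4 left out, Serpina3h was called (3.03, adjusted p = 0.00649) and Serpina3i stood at 3.08. The call of Serpina3i was lost without BALB/c DTC replicate 4 (2.13, adjusted p = 0.0501) and without the lung-rich replicates 1 and 2 (2.26, adjusted p = 0.0532), while Serpina3f was called in both cases (2.67 and 2.98). Without the lung-rich libraries Serpina3g stood at 3.12, Serpina3h at 1.43, Serpina3n at -1.25 and Serpinb9 at -0.14. Serpina3h was called by limma-voom (2.27, adjusted p = 0.00404), on log2(TPM + 1) (1.80, adjusted p = 0.00578) and on log2(TPM + 0.1) (2.18, adjusted p = 0.031), and Serpinb9 with offsets for GC content and length (0.48, adjusted p = 0.0132). With the level of lung markers as a covariate, Serpina3f (2.41, adjusted p = 0.195) and Serpina3i (0.49, adjusted p = 0.83) were not called. Serpina3n was called lower with that covariate (-4.61, adjusted p = 0.00419).

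BALB/c macro-mets compared with BALB/c tumours asked how late lung growth differs from the primary site. Serpinb9 fell (-0.70 ± 0.17, adjusted p = 0.00179), to a level 1.62-fold lower, and all 5 macro-met libraries lay below all 5 tumours. It was the 1 member called of 5 tested, beside 37.8% of all genes. Serpina3f (-0.44 ± 0.69), Serpina3h (-1.23 ± 0.85), Serpina3i (-1.27 ± 0.80) and Serpina3n (-0.12 ± 0.75) were not called, with adjusted p from 0.218 to 0.921. Serpina3g, given without a test, stood at -1.24 ± 0.50, and its macro-met libraries also lay below every tumour. With offsets for the GC content and length of genes the Serpinb9 value was -0.23 (adjusted p = 0.26). With the lung marker covariate Serpina3h (-3.00, adjusted p = 0.0246) and Serpina3n (-2.37, adjusted p = 0.0151) were called as well.

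The same stages were compared in NSG mice. The fall given for the choice of Serpina3g was that of the BALB/c lung libraries, none of which enter here. The gene was therefore tested between NSG DTC and tumours. The rule for its choice named no strain, however. If NSG DTC libraries also entered that choice, the p of Serpina3g here is no support for a rise. From NSG tumours to NSG DTC, 3 of 6 members tested rose, beside 25.5% of all genes. Serpina3g rose 4.43-fold (2.15 ± 0.67, adjusted p = 0.0185) from 0.182 ± 0.113 to 0.856 ± 0.372 CPM, and the groups did not overlap. Serpina3i rose (3.02 ± 0.98, adjusted p = 0.0218) from 9 counts in the 5 tumour libraries together to 109 in the 5 DTC libraries. Serpina3f was called (adjusted p = 0.00602) and was at least 1.48-fold higher in DTC, taking 3 counts per library as the floor for the tumours at 0. Serpina3h (1.23 ± 0.86), Serpina3n (0.77 ± 0.75) and Serpinb9 (-0.05 ± 0.17) were not called, with adjusted p from 0.319 to 0.857.

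These NSG calls rested on few counts. The call of Serpina3g was lost without NSG tumour replicate 1 (1.96, adjusted p = 0.0502), NSG tumour replicate 4 (1.96, adjusted p = 0.0533) or NSG DTC replicate 5 (1.86, adjusted p = 0.0534). The call of Serpina3i was lost without any 1 of NSG tumour replicates 1, 3, 4 and 5 or NSG DTC replicate 3 (2.60 to 2.75, adjusted p = 0.0542 to 0.0634). Without NSG tumour replicate 2, the library with the 9 counts, Serpina3i had no count in the tumours. On the log2(TPM + 1) scale and with the lung marker covariate, 0 of these 3 members were called, and limma-voom called 1 of them, Serpina3i (adjusted p = 0.0233). The call of Serpina3f was also lost on log2(TPM + 0.1). Serpina3h was called by limma-voom (3.19, adjusted p = 0.0396) and on log2(TPM + 0.1) (2.69, adjusted p = 0.0111), and Serpinb9 was called lower with offsets for GC content and length (-0.66, adjusted p = 0.00195). Without the 4 libraries with few genes detected, Serpina3h was called as well (5.33, adjusted p = 9.2e-05).

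NSG macro-mets compared with NSG DTC gave 0 calls among 5 members tested, beside 43.7% of all genes, and 0 of the 5 had an unadjusted p under 0.05 in edgeR. DESeq2 called 0 and limma-voom called 1, Serpina3n (1.37, adjusted p = 0.0388), which stood at 1.49 ± 0.75, adjusted p = 0.111 in edgeR. It was called with the lung marker covariate (1.78, adjusted p = 0.0143) and in the fit of only these groups (1.48, adjusted p = 0.00779). Serpina3g, given without a test because it was chosen for a fall between these stages, stood at -1.87 ± 0.65, a level 3.65-fold lower in macro-mets, and every macro-met library lay below every DTC library. Without NSG macro-met replicate 2 its value was -2.66. Serpina3f stood at -1.71 ± 0.93, adjusted p = 0.143, Serpina3i at -0.72 ± 0.82, adjusted p = 0.51 and Serpinb9 at -0.27 ± 0.17, adjusted p = 0.205. With offsets for GC content and length, Serpinb9 was called higher in macro-mets (0.66, adjusted p = 0.000945).

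From NSG tumours to NSG macro-mets, Serpina3n rose 4.78-fold (2.26 ± 0.77, adjusted p = 0.0274), 1 of 6 members tested, beside 30.5% of all genes. The call was lost without any 1 of NSG tumour replicates 1, 4 and 5 or NSG macro-met replicates 3 and 4 (1.95 to 2.10, adjusted p = 0.0519 to 0.0714). Without NSG tumour replicate 3 the value was 2.88, and without the 4 libraries with few genes detected it was 3.31 (adjusted p = 0.00421). With no filter on low counts it was 2.27 (adjusted p = 0.0585), and with the lung marker covariate it turned to -0.27. The fibroblast marker sum was 272 to 387 CPM in the tumours and 521 to 642 CPM in the macro-mets, and its part in the Serpina3n change was not tested. Serpina3g stood at 0.28 ± 0.77, adjusted p = 0.824, Serpina3i at 2.30 ± 0.98, adjusted p = 0.0753 and Serpinb9 at -0.32 ± 0.17, adjusted p = 0.153. With NSG tumour replicate 2 left out Serpina3i was called (adjusted p = 0.000633), again with no tumour count, and it was called by DESeq2 with all libraries (2.25, adjusted p = 0.0326). Serpinb9 was called lower with the lung marker covariate (-0.76, adjusted p = 0.00737) and in the fit of only these groups (-0.38, adjusted p = 0.027). Without the 4 libraries with few genes detected Serpina3h was called (4.59, adjusted p = 0.00052).

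Tumours of both strains were compared to see which members differ between the hosts at the primary site. Immune status cannot be told apart from other differences between the strains, and the tumours were taken on different days. Serpina3g was 48.7-fold higher in BALB/c tumours (5.61 ± 0.66, adjusted p = 4.37e-07), with 7.40 to 12.0 CPM against 0.0787 to 0.369 CPM. Serpina3f was at least 11.7-fold higher (adjusted p = 2e-05), the NSG tumours being at 0, and this bound ran from 9.31 to 14.3 when single libraries were left out. Serpina3f passed the low-count filter only through BALB/c libraries, so its call here, its lack of overlap and its place in the counts are no support for a difference. Serpina3i was higher (4.24 ± 0.99, adjusted p = 0.00202), by 3.58 without BALB/c tumour replicate 4 and with no NSG count without NSG tumour replicate 2. On log2(TPM + 1) Serpina3i was not called (0.85, adjusted p = 0.0568). Serpina3g, Serpina3f and Serpina3i, 3 of 6 members tested, were called, beside 23.6% of all genes, and 2 of them, Serpina3g and Serpina3f, did not overlap between the strains, beside 15.8% of all genes. Serpina3h (1.76 ± 0.87, adjusted p = 0.145), Serpina3n (0.43 ± 0.75, adjusted p = 0.719) and Serpinb9 (0.43 ± 0.17, adjusted p = 0.0604) were not called. Serpina3h was called without NSG tumour replicate 3 (3.05, adjusted p = 0.022) and without the 4 libraries with few genes detected (4.70), and Serpinb9 without BALB/c tumour replicate 2 or NSG tumour replicate 5 (0.50 and 0.51, adjusted p = 0.041 and 0.0406) and in DESeq2 with all libraries (adjusted p = 0.0344). On log2(TPM + 0.1) Serpina3h was called (2.34, adjusted p = 0.0356). RLE scaling, the stricter filter, the lung marker covariate and the fit of only these groups also called Serpinb9 (0.41 to 0.47, adjusted p = 0.0373 to 0.0492).

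Between BALB/c DTC and NSG DTC, both at day 7, 4 of 5 members tested were higher in BALB/c mice, beside 38.8% of all genes. Serpina3f was 63-fold higher (5.98 ± 0.85, adjusted p = 4.34e-06) and Serpina3i 12.5-fold higher (3.64 ± 0.86, adjusted p = 0.000998). Since Serpina3f passed the low-count filter only through BALB/c libraries, its call and its place in both counts of this comparison are no support. Serpina3h (2.39 ± 0.87, adjusted p = 0.0296) and Serpinb9 (0.58 ± 0.17, adjusted p = 0.00609) were also called, and Serpina3n was not (-0.21 ± 0.74, adjusted p = 0.851). Serpina3g, given without a test, stood at 6.38 ± 0.63. For 3 members, Serpina3g, Serpina3f and Serpina3i, the libraries of the strains did not overlap, beside 31.6% of all genes. Without the lung-rich BALB/c DTC replicates 1 and 2, Serpina3f (5.98) and Serpina3i (3.49) were still called, Serpina3g stood at 6.59, and Serpina3h (1.97, adjusted p = 0.116) and Serpinb9 (0.37, adjusted p = 0.104) were not; Serpina3n stood at -1.59. Serpinb9 also lost its call with the lung marker covariate (0.31, adjusted p = 0.166), on log2(TPM + 1) (0.31, adjusted p = 0.125) and on log2(TPM + 0.1) (0.32, adjusted p = 0.127). Serpina3h was not called with the covariate (adjusted p = 0.209), on log2(TPM + 0.1) (1.82, adjusted p = 0.0719), with the offsets for GC content and length (2.20, adjusted p = 0.0612) or with no filter (2.43, adjusted p = 0.0618). With the covariate Serpina3n was called lower in BALB/c DTC (-2.26, adjusted p = 0.00946). Serpina3h also lost its call without BALB/c DTC replicate 1 or 4 or NSG DTC replicate 1, 2, 4 or 5 (2.05 to 2.40, adjusted p = 0.0501 to 0.0703).

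Between BALB/c and NSG macro-mets, 1 of 5 members tested was called, beside 2.64% of all genes. Serpina3f was 19-fold higher in BALB/c mice (4.25 ± 0.89, adjusted p = 0.00544), on 143 counts in the 5 BALB/c libraries and 7 in the 5 NSG libraries, and without NSG macro-met replicate 1 its value was 5.02. On the log2(TPM + 1) scale it stood at 0.69 and was not called, nor was it in limma-voom (adjusted p = 0.173). With at least 10 counts in 15 libraries required, 0 members were called. Serpina3f passed the low-count filter only through BALB/c libraries, so this call is no support for a difference between the strains. Serpina3g, given without a test, stood at 4.09 ± 0.63, and without NSG macro-met replicate 2 at 4.88; it was the 1 member whose libraries did not overlap, beside 6.98% of all genes. Serpina3n stood lower in BALB/c macro-mets without a call (-1.95 ± 0.76, adjusted p = 0.193), and was called in the fit of only these groups (-1.94, adjusted p = 0.0433). Serpina3i (0.66 ± 0.82), Serpina3h (-0.33 ± 0.85) and Serpinb9 (0.06 ± 0.17) were not called either, with adjusted p from 0.761 to 0.909.

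Whether the stage changes differed between the strains was tested with interaction terms. For DTC against tumour, 0 of 5 members tested were called in edgeR, beside 33.4% of all genes, with 0 at an unadjusted p under 0.05 and 0 calls in DESeq2 and limma-voom. The difference, BALB/c minus NSG, was -0.59 ± 1.14 for Serpina3i, -0.64 ± 1.06 for Serpina3n, 0.62 ± 1.19 for Serpina3h and 0.15 ± 0.24 for Serpinb9, the adjusted p of Serpina3f was 0.204, and the difference of Serpina3g, given without a test, was 0.77 ± 0.87. Serpina3i was called without NSG tumour replicate 2 (adjusted p = 0.0134). Without the lung-rich libraries 0 were called, Serpina3g stood at 0.99 and Serpina3n at -2.01. Serpinb9 was called with offsets for GC content and length (1.15, adjusted p = 0.000192), Serpina3n with the lung marker covariate (-2.56, adjusted p = 0.0216) and Serpina3f on log2(TPM + 1) (adjusted p = 0.00365). For macro-met against tumour, 0 of 5 were called in edgeR, beside 5.23% of all genes, with 3 at an unadjusted p under 0.05, 0 calls in limma-voom and 1 in DESeq2, Serpina3i (-3.60, adjusted p = 0.0274). In edgeR that difference was -3.57 ± 1.27, adjusted p = 0.0972 for Serpina3i, called without NSG tumour replicate 2 (adjusted p = 0.00236), and -2.38 ± 1.07, adjusted p = 0.195 for Serpina3n. Serpina3h (-2.09 ± 1.21, adjusted p = 0.331), Serpinb9 (-0.38 ± 0.24, adjusted p = 0.384) and Serpina3f (adjusted p = 0.16) were not called either. For Serpina3g it was -1.52 ± 0.92, described only, and -0.72 without NSG macro-met replicate 2.

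Genes of the pathways known to induce members were counted in lists. Beside these counts, the share of all genes called between the strains was 23.6% in tumours, 38.8% in DTC and 2.64% in macro-mets. For DTC against tumours it was 41.4% in BALB/c and 25.5% in NSG mice. For macro-mets against tumours it was 37.8% in BALB/c and 30.5% in NSG mice. Interferons are cytokines of antiviral and antitumour immunity, and of 20 interferon pathway genes 13 were higher and 2 lower in BALB/c than in NSG tumours; the median over the list was 1.62 on the log2 scale beside 0.08 over all genes tested. In DTC 17 were higher and 1 lower (the median over the list was 1.91 on the log2 scale beside -0.01 over all genes tested), with the same counts without the lung-rich libraries, and in macro-mets 14 were called, all higher (the median over the list was 1.21 on the log2 scale beside -0.01 over all genes tested). The immunoproteasome gene Psmb9 (2.31 ± 0.18) and the peptide transporter gene Tap1 (2.47 ± 0.21) were also higher in BALB/c tumours, whereas Irf1, which encodes an interferon-induced transcription factor, was lower (-0.59 ± 0.19).

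From BALB/c tumours to BALB/c DTC, where Serpina3f and Serpina3i rose, 4 of the 20 interferon pathway genes rose and 7 fell (the median over the list was -0.12 on the log2 scale beside -0.09 over all genes tested). With the lung-rich libraries left out 3 rose and 5 fell. Irf1 was among those that rose with all libraries (0.91 ± 0.19, adjusted p = 0.000372). Of 20 NF-kB pathway genes, 16 were called in that comparison and all of them rose (the median over the list was 1.18 on the log2 scale beside -0.09 over all genes tested), among them the inhibitor gene Nfkbia (1.81 ± 0.22), the chemokine gene Cxcl1 (2.01 ± 0.31) and Nfkb2 (1.39 ± 0.16), which encodes a subunit of the factor. Again 16 rose and 0 fell without the lung-rich libraries. In NSG mice 4 of the 20 rose from tumours to DTC and the other 16 were not called, beside 25.5% of all genes called. The median over the list was 0.17 on the log2 scale beside 0.06 over all genes tested. Among the 4 were Tnf (2.13 ± 0.34) and Icam1 (1.13 ± 0.24). In tumours 7 of the NF-kB genes were lower and 2 higher in BALB/c than in NSG mice (the median over the list was -0.24 on the log2 scale beside 0.08 over all genes tested). In DTC, by contrast, 9 were higher and 1 lower in BALB/c mice (median 0.48 beside -0.01). That DTC count is given with all libraries only. In macro-mets 0 were higher and 1 lower (median -0.13 beside -0.01).

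Serpina3n is known as a target of STAT3 and of glucocorticoids. From NSG tumours to NSG macro-mets, where Serpina3n rose, 11 of 20 genes of the STAT3 acute phase list rose and 4 fell (the median over the list was 0.75 on the log2 scale beside 0.02 over all genes tested), among them Socs3, a feedback inhibitor of the pathway (1.26 ± 0.23, adjusted p = 0.000142), Stat3 (0.82 ± 0.14, adjusted p = 4.05e-05) and Lbp, an acute phase protein gene (3.14 ± 0.27). Of 17 glucocorticoid-induced genes tested, 8 rose and 1 fell (the median over the list was 0.64 on the log2 scale beside 0.02 over all genes tested), Tsc22d3 by 2.75 ± 0.22 and Fkbp5 by 1.19 ± 0.12. The STAT3 and glucocorticoid lists share Lcn2 and Cebpd, so their counts are not independent. From BALB/c tumours to BALB/c macro-mets, where Serpina3n was not called (-0.12 ± 0.75), 7 genes of the STAT3 list rose and 2 fell (the median over the list was 0.30 on the log2 scale beside -0.03 over all genes tested), and 8 glucocorticoid-induced genes rose and 2 fell. Socs3 (0.96 ± 0.23, adjusted p = 0.0015) and Stat3 (0.45 ± 0.14, adjusted p = 0.0098) were among the genes that rose.

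The proteases that the members inhibit and the other serpins were counted in the same way. Of 10 granzyme and perforin genes, 3 passed the low-count filter, and Gzmb (granzyme B) had 6 counts over the 5 BALB/c tumours, 19 over BALB/c DTC, 14 over BALB/c macro-mets, 7 in NSG tumours and 0 in all 10 NSG lung libraries. Of the cathepsin genes, from BALB/c tumours to DTC 1 of 13 tested rose and 3 fell, beside 41.4% of all genes called. The median over the list was 0.12 on the log2 scale beside -0.09 over all genes tested. Ctsb, which encodes cathepsin B, stood at -0.42 ± 0.11 and Ctsh at 0.85 ± 0.11. The counts without the lung-rich libraries were the same. In BALB/c against NSG tumours 1 was higher and 4 were lower (Ctsb -0.36 ± 0.11), beside 23.6% of all genes called. The median over the cathepsins was -0.10 beside 0.08 over all genes tested. Of 9 other clade B serpins tested out of 15, 6 were called from BALB/c tumours to macro-mets and all fell, as Serpinb9 did (the median over the list was -2.91 on the log2 scale beside -0.03 over all genes tested), among them Serpinb5, the maspin gene (-2.25 ± 0.37), and Serpinb6a (-0.31 ± 0.12). Without the 4 libraries with few genes detected, 2 of these 9 clade B serpins fell and 0 rose, with a median of -1.30. Of the other Serpina3 genes 2 of 6 were tested. Among them Serpina3b fell from BALB/c tumours to DTC (-3.87 ± 1.57, adjusted p = 0.0484) and to macro-mets (-4.55 ± 1.62, adjusted p = 0.0269) and from NSG tumours to DTC (-5.51 ± 1.76, adjusted p = 0.0201), whereas Serpina3f and Serpina3i rose in both DTC comparisons. Without the lung-rich libraries 0 of these other Serpina3 genes were called from BALB/c tumours to DTC. Without the 4 libraries with few genes detected, 1 of these other Serpina3 genes was tested. It was not called in any of the comparisons in which Serpina3b fell. Of the other Serpinb9 genes 5 of 6 were found and none passed the filter. Of 11 secreted serpins outside Serpina3 that were tested, 2 rose and 2 fell from BALB/c tumours to DTC, beside 41.4% of all genes called. The median over these serpins was -0.21 beside -0.09 over all genes tested. Serpine2, an inhibitor of thrombin and plasminogen activators, fell (-1.60 ± 0.23). Without the lung-rich libraries 12 were tested, of which 1 rose and 2 fell.

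The genes whose log2 CPM was most alike that of Serpina3g, Serpina3n and Serpinb9 over the 30 libraries were taken among 8968 genes of moderate or high level. For Serpina3g they were Oas3 (Pearson r = 0.947), an antiviral oligoadenylate synthetase, Ifi35 (0.939), an interferon-induced gene, Ube2l6 (0.921), the enzyme that conjugates ISG15, Slc15a3 (0.911), a lysosomal peptide transporter, and Ly6a (0.911), the Sca-1 gene. Oas3 averaged 35.4 ± 14.8 CPM (SD, n = 5) over BALB/c DTC, 20.1 ± 3.32 in the tumours and 15.7 ± 3.62 in the macro-mets of that strain, and 12.0 ± 2.65, 4.95 ± 0.855 and 5.37 ± 1.69 in NSG DTC, tumours and macro-mets. Its group means spanned a narrower range than those of Serpina3g. For Serpina3n the nearest were the matrix genes Bgn (0.851) and Eln (0.758), then Tns1 (0.746), Sirpa (0.717) and Gpx3 (0.700). Bgn was highest in BALB/c tumour replicate 4 (83.9 CPM) and ranged from 23.4 to 69.8 CPM in NSG macro-mets. For Serpinb9 they were Ly6c1 (0.823), Trappc2l (0.822), Coa3 (0.782), Znrd1 (0.780) and Cuta (0.777). Without the lung-rich libraries these 15 r values ran from 0.709 to 0.940. These correlations describe libraries that share group, depth and scaling, and they carry no test.

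**Figure D5:**
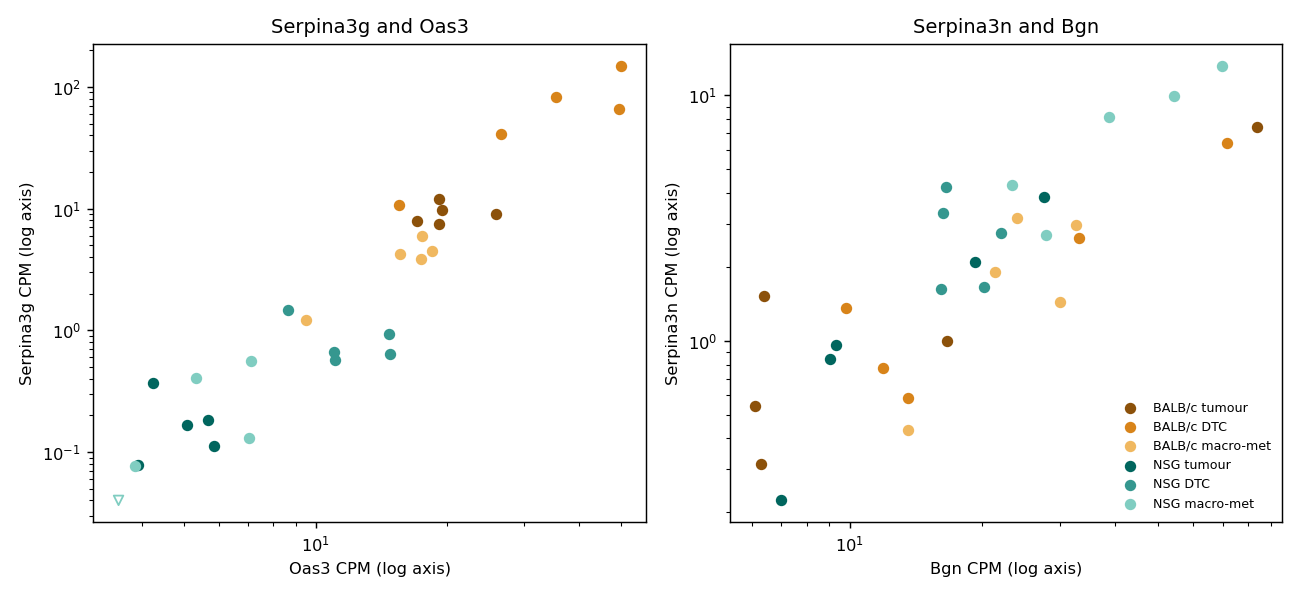
CPM of Serpina3g against Oas3 (left) and of Serpina3n against Bgn (right) in the 30 libraries, coloured by group, both axes on a log scale; the open triangle is a library at 0 for Serpina3g. Serpina3g and Oas3 run together from NSG tumours and macro-mets at the lower left to BALB/c DTC at the upper right, while Serpina3n and Bgn do not separate the strains.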

How the data were processed

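Gene counts and TPM values of 49315 genes in 30 libraries were used as deposited by the authors. Per the submitters' processing notes, reads were trimmed with Trimmomatic 0.36 and aligned with STAR 2.5.2b to GRCm38 (mm10). The counting tool, its strand setting, the annotation and the lengths behind the TPM are not given in the sources used here, so reads shared by neighbouring Serpina3 genes may have been split or dropped. Counts were fitted with the robust quasi-likelihood model of edgeR 4.0.16 (R 4.3.3) with TMM factors and 1 mean per group over all 6 groups (24 residual degrees of freedom), after edgeR's filterByExpr filter by group, which kept 17774 genes with 99.969% of the counts. P-values were adjusted by Benjamini-Hochberg over these genes, and "called" means an adjusted p under 0.05. Fold changes are log2 values ± SE from this fit, with the default prior count of edgeR. Values of log2 CPM, as used for the correlations, had a prior count of 2.

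The members and gene lists were chosen with earlier results of these data known. Serpina3g carries no p in comparisons that involve the lung cells of BALB/c mice or the step from early to late lung cells, and no member was tested between BALB/c macro-mets and DTC. From each list at most 4 genes were named, those of highest mean CPM over the 30 libraries among the genes called. Fixed defining genes could be named beside them (among them Irf1, Stat3, Socs3, Nfkb1, Nfkb2, Gzmb, Prf1, Fkbp5, Tsc22d3). The nearest genes were the 5 with the highest r among genes whose log2 CPM averaged 3 or more. One of the defining genes is not reported here. Replicate numbers follow accession order and pair nothing. Alternatives were RLE scaling, other filters, limma-voom (limma 3.58.1), DESeq2 1.42.0, log2(TPM + 1) and log2(TPM + 0.1), GC and length offsets, a covariate of 19 lung epithelium and endothelium markers, a fit of only the groups compared, and leaving out each library. Leaving out the 4 libraries with few genes detected, or the 2 lung-rich ones, was chosen after seeing the data, as were the shares without NSG tumour replicate 5. Promoters were from RefSeq GRCm38.p6.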

Additional observations from a re-analysis of the deposited data

Results flagged for a closer look

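In 5 of 42 groups of 5 libraries examined, 1 library stood apart from the other 4, with a gap to its nearest neighbour of more than 0.71 of the group's range. Chance gives about 1 such group in 20 where values are normally distributed, which low counts need not be. The groups also share libraries between genes, so the number found is a description and no test. Serpina3h stood at 7.32 CPM in BALB/c tumour replicate 4, against 1.42 CPM in the next library (ratio 0.855). Serpina3n stood at 7.41 CPM in the same library, against 1.52 CPM in the next (ratio 0.830). Serpinb9 stood at 22.9 CPM in NSG macro-met replicate 2, against 19.3 CPM in the next (ratio 0.802). Serpina3i stood at 0.299 CPM in NSG tumour replicate 2 and Serpinb9b at 0.157 CPM in NSG macro-met replicate 4, with the other 4 libraries of each group at 0 (ratio 1). BALB/c tumour replicate 4 also had the fewest genes detected (17517) and the highest fibroblast marker sum (884 CPM) of the 30 libraries; the part of either in these values was not tested.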

How the results depend on the processing

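Of the tested member changes recomputed without 1 library, 585 kept their direction and side of the threshold, 20 lost the call, 7 gained one and 18 turned direction; under the other settings these numbers were 484, 26, 34 and 32. The BALB/c to NSG difference of Serpina3g in tumours and that of Serpina3i in DTC were called under every setting that gave a value. The turned values are of changes that the main fit did not call or that were only described, except Serpina3n in NSG macro-met against tumour with the lung marker covariate. Some were called in the turned direction. These were Serpina3n in BALB/c DTC against tumour with the lung marker covariate and Serpinb9 in NSG macro-met against DTC with GC and length offsets. The cause was not tested. No paired analysis was possible because the labels give no replicate numbers shared by groups. The median over all genes moved by more than 0.1 (log2) in some comparisons, at most by -0.25, for DTC between strains on log2(TPM + 0.1). Lung epithelium markers summed higher in every lung library than in every tumour, so their covariate takes up part of any difference between organs. Low counts limit Serpina3f, Serpina3i and Serpinb9b in NSG groups, where a few counts per library set the values.

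With no filter on low counts, the members called numbered 0 for NSG macro-met against tumour. With at least 10 counts in 15 libraries required, the members called numbered 1 for BALB/c DTC against tumour, 0 for macro-mets between strains. Under limma-voom, the members called numbered 1 for NSG macro-met against DTC, 0 for macro-mets between strains and the direction turned for Serpina3n in BALB/c macro-met against DTC (0.12), Serpina3n in BALB/c macro-met against tumour (0.69), Serpina3g in NSG macro-met against tumour (-0.66), Serpina3n in tumours between strains (-0.080), Serpina3h in the DTC interaction (-0.92). Under DESeq2, the members called numbered 2 for NSG macro-met against tumour, 1 for the macro-met interaction. On log2(TPM + 1), the members called numbered 0 for NSG DTC against tumour, 0 for macro-mets between strains, 1 for the DTC interaction and the direction turned for Serpina3n in BALB/c macro-met against DTC (0.065), Serpina3n in BALB/c macro-met against tumour (0.30), Serpinb9 in NSG DTC against tumour (0.14), Serpinb9 in the DTC interaction (-0.10), Serpina3i in the DTC interaction (1.04). On log2(TPM + 0.1), the members called numbered 2 for DTC between strains and the direction turned for Serpina3n in BALB/c macro-met against DTC (0.12), Serpina3n in BALB/c macro-met against tumour (0.53), Serpinb9 in NSG DTC against tumour (0.15), Serpinb9 in the DTC interaction (-0.11), Serpina3h in the DTC interaction (-0.51), Serpina3i in the DTC interaction (0.18). With GC and length offsets, the members called numbered 0 for BALB/c macro-met against tumour, 1 for NSG macro-met against DTC, 1 for the DTC interaction and the direction turned for Serpina3n in BALB/c DTC against tumour (-0.14), Serpinb9 in NSG macro-met against DTC (0.66), Serpinb9 in macro-mets between strains (-0.092). With the lung marker covariate, the members called numbered 1 for BALB/c DTC against tumour, 3 for BALB/c macro-met against tumour, 0 for NSG DTC against tumour, 1 for NSG macro-met against DTC, 1 for the DTC interaction and the direction turned for Serpinb9 in BALB/c DTC against tumour (-0.66), Serpina3h in BALB/c DTC against tumour (-1.36), Serpina3n in BALB/c DTC against tumour (-4.61), Serpina3n in BALB/c macro-met against DTC (2.24), Serpina3h in NSG DTC against tumour (-0.92), Serpina3n in NSG DTC against tumour (-2.05), Serpina3g in NSG macro-met against tumour (-0.048), Serpina3h in NSG macro-met against tumour (-0.997), Serpina3n in NSG macro-met against tumour (-0.27), Serpinb9 in the DTC interaction (-0.099), Serpina3h in the DTC interaction (-0.44). With only the groups compared, the members called numbered 1 for NSG macro-met against DTC, 2 for NSG macro-met against tumour. Without the 4 libraries with few genes detected, the members called numbered 3 for NSG macro-met against tumour, 2 for the macro-met interaction and the direction turned for Serpina3n in BALB/c macro-met against tumour (1.26), Serpina3h in macro-mets between strains (0.082), Serpina3h in the DTC interaction (-2.24). Without the 2 lung-rich libraries, the members called numbered 1 for BALB/c DTC against tumour, 2 for DTC between strains and the direction turned for Serpinb9 in BALB/c DTC against tumour (-0.14), Serpina3n in BALB/c DTC against tumour (-1.25), Serpina3n in BALB/c macro-met against DTC (1.14), Serpinb9 in the DTC interaction (-0.064).

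Leaving out single libraries, the members called ran from 1 to 3 for BALB/c DTC against tumour, 1 to 1 for BALB/c macro-met against tumour, 1 to 3 for NSG DTC against tumour, 0 to 0 for NSG macro-met against DTC, 0 to 2 for NSG macro-met against tumour, 3 to 4 for tumours between strains, 3 to 4 for DTC between strains, 1 to 1 for macro-mets between strains, 0 to 1 for the DTC interaction, 0 to 1 for the macro-met interaction. Serpina3n in BALB/c DTC against tumour ranged from -0.71 to 1.44 and turned without BALB/c tumour replicates 1, 2, 3, 5 (each alone), and also without BALB/c DTC replicate 1. Serpinb9 in BALB/c DTC against tumour ranged from -0.093 to 0.17 and turned without BALB/c DTC replicate 1. Serpina3n in BALB/c macro-met against DTC ranged from -0.45 to 0.59 and turned without BALB/c DTC replicate 1, and also without BALB/c macro-met replicate 1. Serpina3n in BALB/c macro-met against tumour ranged from -0.40 to 1.24 and turned without BALB/c tumour replicate 4, and also without BALB/c macro-met replicate 1. Serpinb9 in NSG DTC against tumour ranged from -0.22 to 0.0004 and turned without NSG DTC replicate 2. Serpina3g in NSG macro-met against tumour ranged from -0.51 to 0.72 and turned without NSG macro-met replicate 2. Serpina3n in tumours between strains ranged from -0.94 to 1.07 and turned without BALB/c tumour replicate 4. Serpina3n in DTC between strains ranged from -1.03 to 0.0018 and turned without BALB/c DTC replicate 5, and also without NSG DTC replicate 1. Serpina3h in macro-mets between strains ranged from -0.70 to 0.082 and turned without NSG macro-met replicate 3. Serpina3i in the DTC interaction ranged from -4.91 to 0.040 and turned without BALB/c tumour replicate 4. Serpina3n in the DTC interaction ranged from -1.46 to 0.69 and turned without BALB/c tumour replicate 4. Serpina3h in the DTC interaction ranged from -0.68 to 1.81 and turned without NSG tumour replicate 3. Serpinb9 in the DTC interaction ranged from -0.016 to 0.29 and turned without BALB/c DTC replicate 1.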
